A study of Homo sapiens with 30 samples.

Results

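The SR and hnRNP splicing factors are 34 genes, chosen by name: the 12 numbered SR genes SRSF1 to SRSF12, both transformer-2 genes (TRA2A and TRA2B) and 20 hnRNP genes. They are 34 of the 61578 genes in the count tables, and all 34 passed the filter on low counts that left 19982 genes tested. SR proteins bind exonic enhancers in pre-mRNA through RNA recognition motifs and recruit the spliceosome through arginine- and serine-rich tails, while hnRNP proteins coat nascent RNA and often oppose exon inclusion. Both act while RNA polymerase II is still transcribing, and the C-terminal domain (CTD) of its largest subunit, RPB1 (gene POLR2A), carries a repeated heptad whose phosphorylation is tied to the recruitment of splicing factors. Many of these genes are also known to set their own mRNA level by splicing their transcripts into forms that nonsense-mediated decay removes.

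The 30 poly(A) RNA-seq libraries form 15 groups of 2 and carry the label A549, a lung adenocarcinoma line. Every line but Mock carried an RPB1 degron, so that dTAGV-1, a degrader molecule, removes the endogenous protein. Lines Y1F, S2A, T4V, S5A and S7A also carried an RPB1 complement with the named heptad residue changed (tyrosine 1 to phenylalanine, serine 2 to alanine, threonine 4 to valine, serine 5 to alanine or serine 7 to alanine), and line WT carried a wild-type complement. Treated libraries of these 6 lines came after doxycycline (Dox, 2 µg/mL) for 24 h, given to induce the complement, and then 100 nM dTAGV-1 for 12 h. The degron line has no complement, and its treated libraries came after the dTAGV-1 step alone. Dox is thus a further difference between WT and degron. Each of the 7 lines had an untreated group, and Mock was untreated, with a wild-type genotype and no degron. The question was how gene expression changes when each CTD mutant takes the place of the endogenous protein. Whether a line is 1 clone, and whether paired libraries came from different cultures, the labels do not say. The p-values therefore rest on library-to-library spread alone, and this may be technical.

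The library label and the marker genes did not match in most libraries. Of 15 lung adenocarcinoma markers, summed TPM (a level per transcript length, scaled to each library) was 122 to 265 in the 14 treated libraries of the 7 lines and 132 to 210.2 in the 14 untreated ones, against 33430 to 33480 in Mock. AKR1B10, an aldo-keto reductase that defines A549, stood at no more than 0.201 TPM in all 28 libraries of the lines, against 9714 and 9747 TPM in Mock. CES1 was at 0 in all 28. SFTPB and NAPSA of the same list did not set Mock apart. SFTPB had 0.0778 and 0.0733 TPM in Mock against 0 to 0.208 TPM in untreated libraries of the lines, and NAPSA 1.69 and 1.18 TPM against 0.556 to 1.69 TPM. Of 8 markers of the kidney line HEK293 or of neurons, the sum was 461 to 748 TPM in untreated libraries of the lines, against 73.2 and 75.7 TPM in Mock. The insulin receptor substrate IRS4 had a median of 274 TPM in those untreated libraries, against 0.0192 and 0.0181 TPM in Mock. INA, a neuronal intermediate filament gene, went the other way, with a median of 1.42 TPM (highest 10.1) against 55.7 and 51.2 TPM in Mock, and LHX2 had a median of 12.5 TPM against 8.83 and 8.20 TPM. All libraries are therefore called here by their line, and a difference between any line and Mock includes this difference in markers. The summed level of those 8 markers was also lower in treated libraries (117 to 475 TPM) than in untreated ones (461 to 748 TPM), and that of 6 immune markers was higher (9.84 to 34.2 against 3.42 to 8.06 TPM, with PTPRC at no more than 0.0429 TPM). Their part in the results below was not tested. Fewer cells of one type and less RNA per cell cannot be told apart in such bulk libraries. Library totals were 10866089 to 17912802 counts. POLR2A mRNA, endogenous and induced copies counted together, stood at 411 to 1764 CPM (counts scaled to library size) in treated libraries of the 7 lines against 278 to 572 CPM in untreated ones, which does not check the removal of the protein.

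In untreated libraries the members ranged widely in level. HNRNPA1, which binds splicing silencers, was highest at 1700 ± 90.7 TPM (SD, n = 14 untreated libraries of the 7 lines), followed by HNRNPAB at 1400 ± 132 TPM and HNRNPK, a poly(C)-binding protein, at 924 ± 68.1 TPM. SRSF12 was lowest at 14.7 ± 2.28 TPM, below HNRNPLL at 35.1 ± 2.41 TPM and HNRNPUL2 at 36.1 ± 5.48 TPM. Of the 33 neighbouring pairs in this order, 29 had ranges over the 14 libraries that overlapped, so the order within the middle of the list is not resolved. The members together made up 1.11% to 1.42% of all TPM in the untreated libraries of the lines and 0.823% and 0.839% in Mock. In TPM, both Mock libraries lay below all 14 untreated libraries for 26 members and above them for 2, HNRNPUL1 and HNRNPUL2, against 40.5% and 19.2% of all genes tested. This count depends on the measure. HNRNPH3, which is among the 26, stood at 387 and 379 CPM in Mock against 309 to 376 CPM in the untreated libraries. By the test on counts given below, 10 members were higher and 8 lower in the untreated degron line than in Mock. These levels are the authors' deposited TPM, a share of each library, and reads of HNRNPA1, HNRNPA3, HNRNPC and HNRNPK may be split with processed pseudogenes, and those of SRSF8 with SRSF2, the gene it was copied from.

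**Figure D1:**
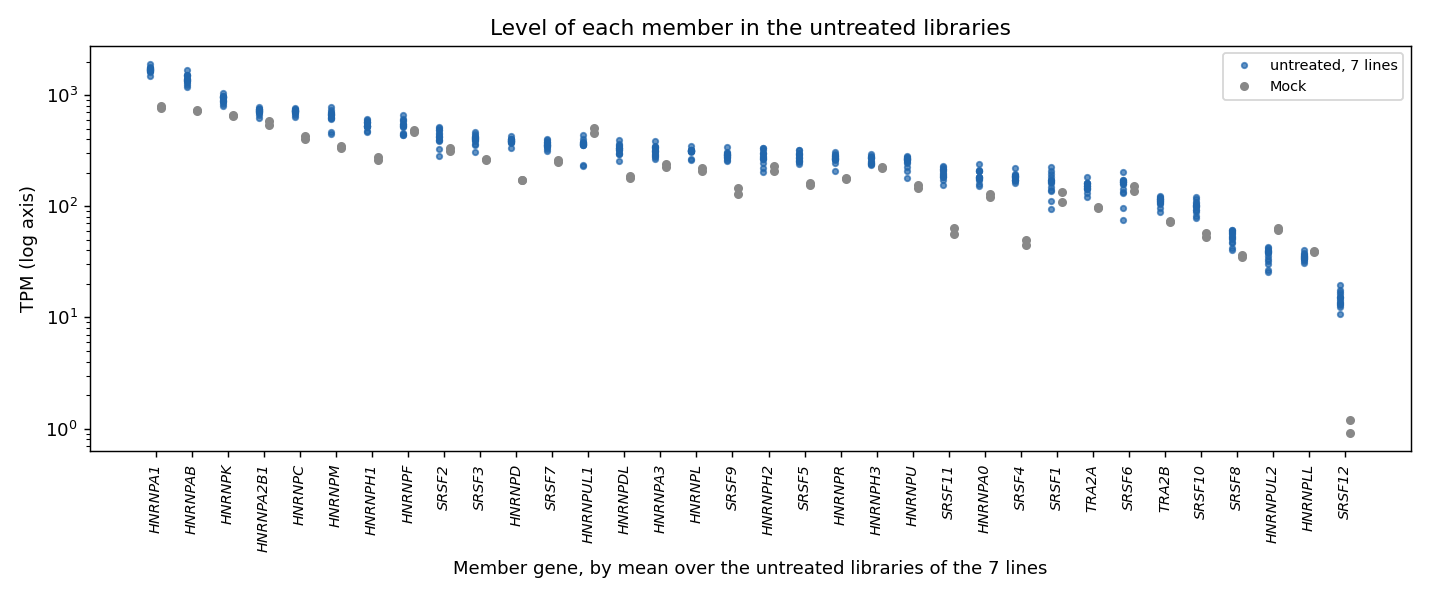
Deposited TPM (log axis) of the 34 members in the 14 untreated libraries of the 7 lines and, to the right of each, the 2 Mock libraries. HNRNPA1 at 1700 TPM and SRSF12 at 14.7 TPM are the ends of the order. In TPM, Mock lies lower for 26 members, a count that depends on the measure.

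Many more members fell than rose on treatment in the 5 mutant lines and the degron line. Fold changes are on the log2 scale, ± 1 standard error, with n = 2 libraries per group, and come from edgeR with TMM scaling, which sets the typical gene to no change. A member is called where its edgeR adjusted p is under 0.05. In the Y1F line 27 of 34 members fell and 1 rose, against 21% of all genes tested that fell and 23.1% that rose. In S5A 26 fell and 1 rose (24.2% and 25.5% of all genes). In S7A 23 fell and 1 rose (17.1% and 17.8%). Y1F had 23 to 27 members lower and S5A 24 to 26 with any 1 library left out, while the S7A count was 15 without untreated S7A replicate 1 or without treated S7A replicate 2.

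The degron line, with no complement, had 20 members that fell and 2 that rose, against 21.4% and 23.1% of all genes. In S2A 17 fell and 4 rose (18.2% and 17%), and in T4V 15 fell and 2 rose (14% and 14.8%). In the WT line 5 fell and 0 rose (1.84% and 3.09% of all genes), where edgeR at an unadjusted p under 0.05 gave 14 lower and 0 higher and DESeq2's Wald test 5 lower and 0 higher after adjustment. None of these 5 calls (HNRNPDL, SRSF7, HNRNPD, SRSF3 and HNRNPR) held without each of the 4 WT libraries in turn. HNRNPDL alone remained called without untreated WT replicate 2, SRSF7 and HNRNPD without treated replicate 2, and 3 of the 5 without untreated replicate 1, and with the WT line's own 4 libraries the count was 0. Of the few rises, those of TRA2A in S5A, S2A and the degron line and of HNRNPM in S2A held without any 1 library, and the others did not. The number that rose was 0 in Y1F without its treated or untreated replicate 1, 0 in S7A without its treated replicate 1 or untreated replicate 2, and 2 in S2A without its treated or untreated replicate 2. In T4V it was 0 without treated or untreated replicate 1 and 1 without treated replicate 2, and in the degron line 1 without any 1 of its 4 libraries.

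By the median, WT had the smallest change. The median log2 fold change of the 34 members was -0.55 in Y1F, -0.47 in S5A, -0.46 in S7A, -0.28 in both S2A and T4V, -0.17 in WT and -0.34 in the degron line, while that of all genes tested lay between -0.01 and 0.05. The distance between these medians depends on which genes are compared. It was -0.59 in Y1F, -0.49 in S5A and -0.27 in S2A. With only genes of mean CPM of at least 5 it was smaller, at -0.43, -0.33 and -0.15. On that filter it was -0.36 in S7A, -0.25 in T4V, -0.15 in WT and -0.29 in the degron line. The number of members below the median of all genes was 33 in Y1F, 30 in S5A, 32 in S7A, 26 in S2A, 25 in T4V, 33 in WT and 29 in the degron line. The members' share of all TPM was lower in both treated than in both untreated libraries of each line, for example 0.94% and 0.915% in treated Y1F against 1.27% and 1.35% in untreated Y1F, and 0.926% and 0.854% in the treated degron line against 1.11% and 1.23% in the untreated one. By line the members moved unevenly. All 7 lines had a called fall for 4 members, against 1.13% of all genes tested, and all 6 lines other than WT for 9 (5.54%). The count over 7 lines includes WT calls that did not hold with each WT library left out in turn, as given above. At least 4 of those 6 had one for 20 members (15.5%), while TRA2A rose in all 6, as did 5.75% of all genes. HNRNPH2 was the 1 member called in both directions.

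**Figure D2:**
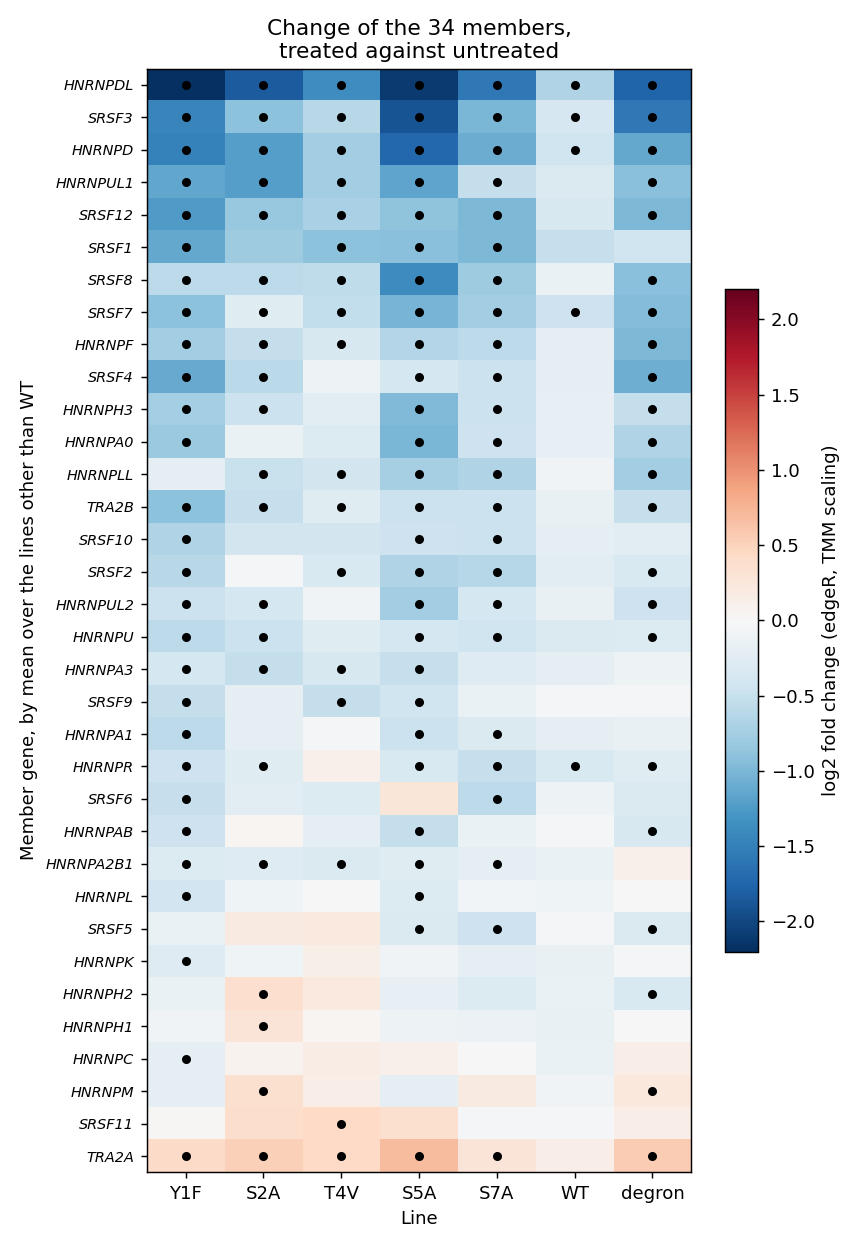
Log2 fold change, treated against untreated, of each of the 34 members (rows) in the 7 lines (columns) with TMM scaling; black dots mark an edgeR adjusted p under 0.05. HNRNPDL, SRSF3 and HNRNPD are lowest, and TRA2A is higher in all 6 lines other than WT, a direction that turns in 5 of them with the authors' factors and in 3 with mitochondrial scaling.

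The size of these changes depends on the scaling. A scaling shifts all genes of a comparison by nearly the same amount, so their order relative to other genes hardly can change. The authors' deposited table rests on factors, solved here from its base means, under which the typical gene falls on treatment. The summed counts over factor of treated libraries were 51.2% of those of untreated ones in Y1F, 49.7% in S5A, 56.1% in S7A, 71.5% in S2A and 75.4% in T4V. The same ratio was 84.3% in WT (63.2% to 108.7% over pairs of libraries) and 56.45% in the degron line. With its own adjusted p and the same threshold, the authors' deposited table has all 34 members lower in Y1F and S5A, 33 in S7A, 29 in S2A, 25 in T4V, 0 in WT and 33 in the degron line, and 0 higher in any of the 7. Of all genes with an adjusted p in the authors' deposited table, 49.5% were lower and 2.9% higher in Y1F, 49% and 4.04% in S5A, and 47.8% and 2.34% in S7A. The same shares in the authors' deposited table were 39.7% and 3.2% in S2A, 32.8% and 1.47% in T4V, 0.0296% and 0.074% in WT, and 47.1% and 2.54% in the degron line. HNRNPDL had the lowest log2 fold change of the 34 in the authors' deposited table for each line, from -3.07 in Y1F and S5A to -0.93 in WT, and TRA2A the highest, from -0.54 in S7A to 0.01 in S2A.

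With the 13 mitochondrial mRNAs as the scale, members lower numbered 32 in Y1F, 33 in S5A, 32 in S7A, 29 in S2A, 32 in T4V, 23 in WT and 31 in the degron line, and 0 rose in any, also at an unadjusted edgeR p under 0.05. Of all genes tested on this scale, 36.7% fell and 13.3% rose in Y1F, 56.8% and 10.6% in S5A, and 38.3% and 9.27% in S7A. The shares were 46.1% and 7.41% in S2A, 48.3% and 4.16% in T4V, 9.48% and 2.03% in WT, and 42.5% and 9.72% in the degron line. The distance of the members' median from that of all genes was close to the same under all 3 scalings. Such a shift of all genes leaves little else possible, so this is not added support. In Y1F it was -0.59 with TMM, -0.61 on the mitochondrial scale and -0.61 with the authors' factors, in WT -0.20, -0.22 and -0.23, and in the degron line -0.38, -0.41 and -0.41. Which scale gives the amount of mRNA per cell was not tested, since 0 fly genes, from the S2 cells added as a spike-in, are listed in the count tables.

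**Figure D3:**
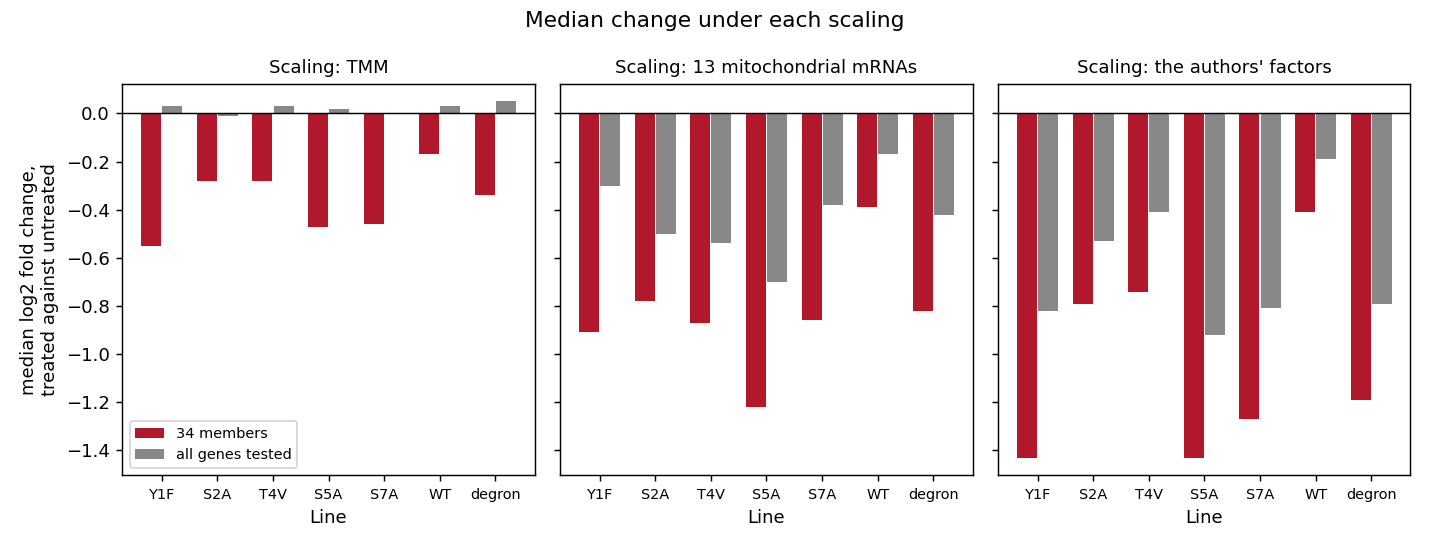
Median log2 fold change, treated against untreated, of the 34 members (red) and of all genes tested (grey) in each line under 3 scalings. The members' median lies below that of all genes in all 7 lines in each panel, by 0.59 to 0.61 in Y1F and 0.20 to 0.23 in WT. A scaling shifts all genes of a comparison nearly alike, so this distance is close to fixed between panels.

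HNRNPDL, HNRNPD, SRSF3 and SRSF7 were the members called lower in all 7 lines in the fit over all libraries. They were so under all 3 scalings of that fit. The WT part rests on calls that did not hold with each WT library left out in turn, as given above. With the WT line's own libraries 0 members were called lower in WT. In WT the authors' deposited table has an adjusted p of 0.51 for HNRNPDL and 0.999 for HNRNPD, SRSF3 and SRSF7. HNRNPD (also called AUF1) binds AU-rich elements and speeds the decay of mRNAs that carry them, and HNRNPDL is its paralogue. Both genes lie on the minus strand of chromosome 4 (HNRNPD at 82352498 to 82374503 and HNRNPDL at 82422564 to 82430408, GENCODE release 29, GRCh38, the same build as hg38). SRSF3 (chromosome 6, 36594353 to 36605600, plus strand) and SRSF7 (chromosome 2, 38743599 to 38751494, minus strand) are the smallest and a zinc-knuckle SR protein, and both are known to couple splicing to mRNA export. Because these 4 moved together, the 250 bases before the RefSeq start of each of them are shown (GRCh38.p14). Where RefSeq gave several starts, the one farthest upstream was used. The bases run 5′ to 3′ on the gene's strand, with capitals at motifs searched on both strands. These were the TATA box, spelled TATAAA, the E-box, spelled CACGTG, the partial cAMP response element, spelled TGACG, the CCAAT box, the GC box, spelled GGGCGG, and the ETS site, spelled CCGGAA.
HNRNPDL, chr4:82430463-82430712, minus: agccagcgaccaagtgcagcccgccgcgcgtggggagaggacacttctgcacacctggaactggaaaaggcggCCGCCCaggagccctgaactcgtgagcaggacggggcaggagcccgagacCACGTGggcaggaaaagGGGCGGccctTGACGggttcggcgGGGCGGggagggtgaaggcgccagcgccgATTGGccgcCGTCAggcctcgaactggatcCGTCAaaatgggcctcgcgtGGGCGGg
HNRNPD, chr4:82373992-82374241, minus: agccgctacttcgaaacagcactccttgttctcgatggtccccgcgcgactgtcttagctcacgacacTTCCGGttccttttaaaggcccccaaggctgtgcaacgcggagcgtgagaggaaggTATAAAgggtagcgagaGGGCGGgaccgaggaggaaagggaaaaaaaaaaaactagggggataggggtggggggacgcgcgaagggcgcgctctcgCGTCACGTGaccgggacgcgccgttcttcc
SRSF3, chr6:36594112-36594361, plus: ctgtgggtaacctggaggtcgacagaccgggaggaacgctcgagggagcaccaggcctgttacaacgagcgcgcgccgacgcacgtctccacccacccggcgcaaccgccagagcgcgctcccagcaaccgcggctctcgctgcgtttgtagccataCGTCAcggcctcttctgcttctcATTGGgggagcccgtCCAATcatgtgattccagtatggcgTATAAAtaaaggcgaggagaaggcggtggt
SRSF7, chr2:38751495-38751744, minus: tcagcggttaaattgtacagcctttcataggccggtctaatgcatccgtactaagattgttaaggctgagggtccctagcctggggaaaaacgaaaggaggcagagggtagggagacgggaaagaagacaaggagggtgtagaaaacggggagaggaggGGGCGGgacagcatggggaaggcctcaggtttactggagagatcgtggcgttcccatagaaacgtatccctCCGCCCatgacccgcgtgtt
The RefSeq and GENCODE starts differ: the HNRNPD window lies inside the GENCODE span given above, that of SRSF3 ends within it and that of HNRNPDL stands off from it. In HNRNPD the partial cAMP element, read on the other strand, overlaps the E-box. HNRNPDL and HNRNPD both hold an E-box, the partial cAMP element and a GC box, beside a CCAAT box in HNRNPDL and, in HNRNPD, a TATA box and an ETS site. SRSF3 holds a TATA box, the partial cAMP element and 2 CCAAT boxes, and the matches in SRSF7 were GC boxes. Counted from the start used, the first base of the TATAAA match lay at -126 in HNRNPD and at -30 in SRSF3.

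Windows were found for 31 of the 34 members, without HNRNPA1, SRSF2 and TRA2A. The E-box stood in 6 of 31 members (19.4%) and in 6.46% of the 27305 windows of all genes, the partial cAMP element in 14 (45.2%, against 21.6%), the CCAAT box in 16 (51.6%, against 33%) and the GC box in 20 (64.5%, against 42.2%). The TATA box was in 4 of 31 (12.9%, against 11.2%) and the ETS site in 6 (19.4%, against 14.8%). The full cAMP element, spelled TGACGTCA and containing the partial one, was in 0 of the 31 windows and in 1.75% of all. The members' windows were also richer in G and C, with a median of 65.6% against 57.6% over all windows, and these shares are descriptions of letters, not of binding. The 27305 windows were not limited to genes tested here, while all members were tested. The shares are therefore not set against those of expressed genes alone.

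HNRNPDL had the largest mean change of all members over the 6 lines other than WT. It stood at 101 and 93.1 CPM in treated Y1F libraries against 411 and 475 CPM in untreated ones. The level was 104 and 99.4 CPM in treated S5A libraries against 440.3 and 439 CPM in untreated ones. Treated and untreated libraries are widely separated in both lines. It stood at 121 and 129 CPM in treated S2A libraries against 443 and 449 CPM in untreated ones. The level was 188 and 172 CPM in treated T4V libraries against 412 and 518 CPM in untreated ones, and 169 and 135 CPM in treated S7A libraries against 485 and 420.3 CPM in untreated ones. In each of these 5 mutant lines both treated libraries lay far below both untreated ones, and the highest treated library of the 5 was below the lowest untreated one. Without the complement it had 115 and 98.8 CPM in treated degron libraries against 347 and 385 CPM in untreated ones, and with the wild-type one 303 and 248 CPM in treated WT libraries against 427 and 451 CPM in untreated ones, so that treated WT was the highest of the 7 treated groups. The fall was -2.19 ± 0.13 in Y1F (edgeR adjusted p = 6.1e-11), -2.11 ± 0.13 in S5A (6.3e-11), -1.83 ± 0.13 in S2A (1.4e-09), -1.57 ± 0.13 in S7A (1.3e-08) and -1.36 ± 0.13 in T4V (1.5e-07). In the degron line it was -1.77 ± 0.13 (edgeR adjusted p = 7.9e-10). In WT it was -0.67 ± 0.13 (edgeR adjusted p = 0.0026), or -0.54 (edgeR adjusted p = 0.061) without treated WT replicate 2. Mock stood at 332 and 318 CPM.

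HNRNPD changed in nearly the same order of lines, by less. It stood at 235 and 247 CPM in treated Y1F libraries against 675 and 676 CPM in untreated ones. The level was 196 and 188 CPM in treated S5A libraries against 608 and 668 CPM in untreated ones. S5A was the lowest of the 7 treated groups. It stood at 275 and 295 CPM in treated S2A libraries against 668 and 658 CPM in untreated ones. The level was 428 and 390 CPM in treated T4V libraries against 696 and 702 CPM in untreated ones, and 326 and 287 CPM in treated S7A libraries against 675 and 632 CPM in untreated ones. No treated library of any line reached the lowest untreated one, at 579 CPM in the degron line. The remaining lines had 478 and 479 CPM in treated WT libraries against 632 and 661 CPM in untreated ones, and 273 and 289 CPM in treated degron libraries against 579 and 639 CPM in untreated ones. The log2 fold change was -1.73 ± 0.08 in S5A, -1.49 ± 0.08 in Y1F, -1.22 ± 0.08 in S2A, -1.09 ± 0.08 in S7A, -0.77 ± 0.08 in T4V and -1.12 ± 0.08 in the degron line (edgeR adjusted p = 1.8e-12 to 7.1e-07). In WT it was -0.43 ± 0.08 (edgeR adjusted p = 0.0025), or -0.40 (edgeR adjusted p = 0.058) without untreated WT replicate 2.

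SRSF3 was the SR gene with the largest mean fall over the same 6 lines, and its lowest groups were S5A and the degron line. It had 188 and 179 CPM in treated S5A libraries against 669.9 and 706 CPM in untreated ones. The level was 192 and 196 CPM in treated degron libraries against 547 and 604 CPM in untreated ones. The treated libraries of both lines lay below those of every other line. It had 247 and 255 CPM in treated Y1F libraries against 629 and 751 CPM in untreated ones. The level was 359.9 and 402 CPM in treated S2A libraries against 715 and 714 CPM in untreated ones, and 376 and 336 CPM in treated S7A libraries against 758 and 677 CPM in untreated ones. The smallest falls were in T4V and WT, with 493 and 474 CPM in treated T4V libraries against 691 and 784 CPM in untreated ones, and 563 and 504 CPM in treated WT libraries against 687 and 696 CPM in untreated ones. The log2 fold change was -1.90 ± 0.10 in S5A, -1.57 ± 0.10 in the degron line, -1.46 ± 0.10 in Y1F, -1.01 ± 0.10 in S7A, -0.91 ± 0.10 in S2A and -0.61 ± 0.10 in T4V (edgeR adjusted p = 5.1e-12 to 7.2e-05). In WT it was -0.37 ± 0.10 (edgeR adjusted p = 0.024), and -0.30 to -0.39 (edgeR adjusted p = 0.12 to 0.22) without untreated WT replicate 1 or 2 or treated WT replicate 2.

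SRSF7, named because it is the remaining member called lower in all 7 lines in the fit over all libraries, was chosen after its values were seen. It had 161 and 160.2 CPM in treated S5A libraries against 332 and 326 CPM in untreated ones. The level was 190 and 192 CPM in treated Y1F libraries against 347 and 368 CPM in untreated ones, and 165 and 158 CPM in treated degron libraries against 316 and 309.9 CPM in untreated ones. The groups do not overlap in these 3 lines, nor in any of the lines that follow. It had 227 and 207 CPM in treated S7A libraries against 401 and 341 CPM in untreated ones. The level was 249 and 240.4 CPM in treated T4V libraries against 357 and 360.4 CPM in untreated ones. The narrowest gaps were in WT and S2A, with 261 and 262 CPM in treated WT libraries against 342 and 375 CPM in untreated ones, and 301 and 305 CPM in treated S2A libraries against 362 and 368 CPM in untreated ones. Its log2 fold change was -1.03 ± 0.08 in S5A, -0.96 ± 0.08 in the degron line, -0.90 ± 0.08 in Y1F, -0.77 ± 0.08 in S7A and -0.55 ± 0.08 in T4V (edgeR adjusted p = 2.2e-09 to 3.4e-05). It was -0.45 ± 0.08 in WT (edgeR adjusted p = 0.0016), or -0.38 (edgeR adjusted p = 0.062) without untreated WT replicate 2. It was -0.27 ± 0.08 in S2A (edgeR adjusted p = 0.012), and the call was lost without any of 3 of that line's libraries (-0.28 to -0.31, edgeR adjusted p = 0.052 to 0.068, without untreated S2A replicate 2, treated S2A replicate 1 or treated S2A replicate 2).

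**Figure D4:**
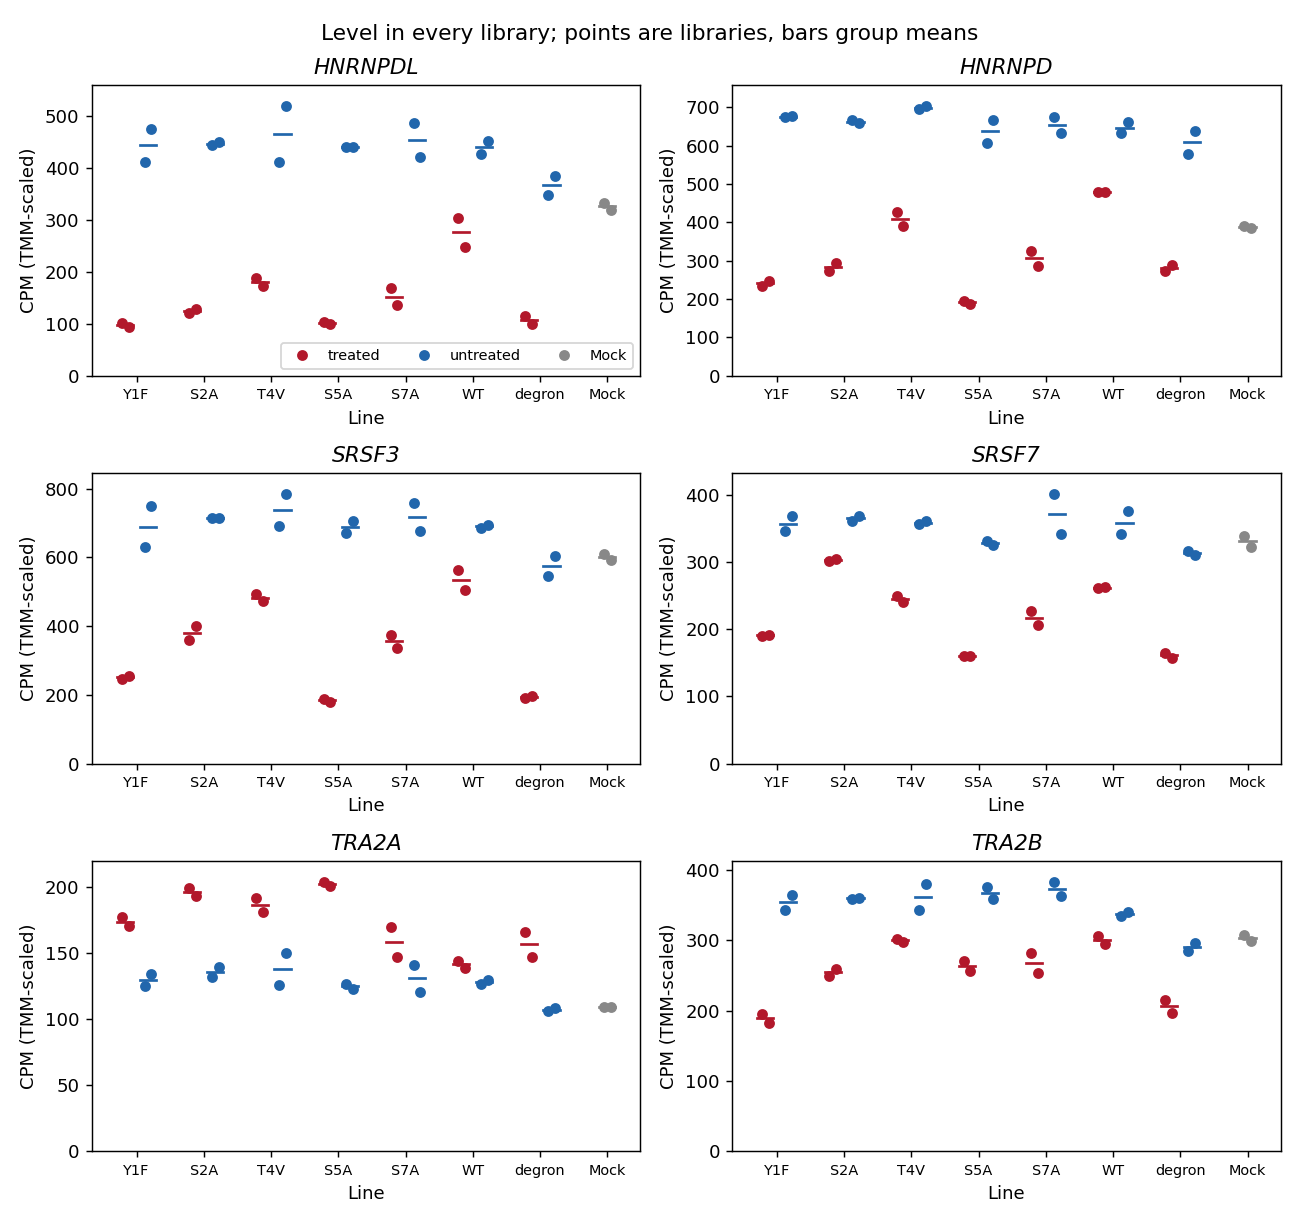
Level of 6 members in every library, in TMM-scaled CPM, with treated libraries (red) left of untreated ones (blue) in each line and Mock (grey) at the right; points are libraries and bars are group means. HNRNPDL, HNRNPD, SRSF3, SRSF7 and TRA2B are lower in treated libraries of every line, while TRA2A is higher on this scale. Of the 6 lines other than WT, that direction turns in 5 with the authors' factors and in 3 with mitochondrial scaling.

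Among the 12 SR genes, 10 fell in Y1F, S5A and S7A, against 21%, 24.2% and 17.1% of all genes. In S2A 5 fell (18.2%), in T4V 7 (14%), in WT 2 (1.84%) and in the degron line 7 (21.4%). SRSF12, a low-abundance SR protein known as an antagonist of other SR proteins, had 8.16 and 6.41 CPM in treated Y1F libraries against 16.8 and 18.2 CPM in untreated ones, and 10.4 and 7.8 CPM in treated degron libraries against 19.8 and 16.2 CPM in untreated ones. Its log2 fold change was -1.25 ± 0.18 in Y1F, -0.99 ± 0.19 in S7A, -0.99 ± 0.17 in the degron line, -0.88 ± 0.18 in S5A, -0.84 ± 0.18 in S2A and -0.71 ± 0.17 in T4V (edgeR adjusted p = 1e-05 to 0.0041), the last of which was -0.50 (edgeR adjusted p = 0.062) without untreated T4V replicate 2. In WT it was -0.36 ± 0.17 (edgeR adjusted p = 0.27). SRSF8 fell most in S5A, with 21.8 and 20.9 CPM in treated S5A libraries against 54.7 and 57.4 CPM in untreated ones, a change of -1.39 ± 0.10 (edgeR adjusted p = 3.1e-10). It also fell in the degron line (-0.92 ± 0.09) and in Y1F, S2A, T4V and S7A (-0.56 to -0.78) with edgeR adjusted p = 1e-07 to 0.00012, and stood at -0.14 ± 0.09 in WT (edgeR adjusted p = 0.44).

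SRSF4, an SR protein with a long arginine- and serine-rich tail, fell in 5 of the 6 lines other than WT, all but T4V. It had 172 and 186 CPM in treated Y1F libraries against 414 and 358 CPM in untreated ones, and 168 and 179.6 CPM in treated degron libraries against 367 and 361 CPM in untreated ones, changes of -1.11 ± 0.10 and -1.07 ± 0.10 on the log2 scale (edgeR adjusted p = 2.8e-08 and 3.6e-08). In T4V it had 387 and 345 CPM in treated T4V libraries against 404 and 391 CPM in untreated ones (-0.12 ± 0.10, edgeR adjusted p = 0.4). The change was -0.59 ± 0.10 in S2A, -0.47 ± 0.10 in S7A and -0.39 ± 0.10 in S5A (edgeR adjusted p = 0.00011 to 0.0029), and -0.21 ± 0.10 in WT (edgeR adjusted p = 0.25).

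SRSF1, the founding SR protein, varied widely between libraries of a group. It had 125 and 95.8 CPM in treated Y1F libraries against 193 and 288 CPM in untreated ones. The level was 126 and 123 CPM in treated T4V libraries against 161 and 304 CPM in untreated ones, and 149 and 80.4 CPM in treated S7A libraries against 247 and 205 CPM in untreated ones. The log2 fold change was -1.12 ± 0.32 in Y1F, -0.98 ± 0.32 in S7A, -0.92 ± 0.32 in S5A and -0.90 ± 0.32 in T4V (edgeR adjusted p = 0.0075 to 0.039), and not called in S2A (-0.79 ± 0.32, edgeR adjusted p = 0.058), WT or the degron line. All 4 calls were lost when 1 library was left out. These libraries were treated or untreated Y1F replicate 2 (-0.85 in the second case), treated T4V replicate 1 or 2 or untreated T4V replicate 2 (-0.38 in the last case), treated S5A replicate 2 or untreated S5A replicate 1 (-0.88), and treated S7A replicate 2 (-0.61) or untreated S7A replicate 1, with edgeR adjusted p = 0.068 to 0.45. Of the SR genes, SRSF11 alone was never called lower, which did not hold on the mitochondrial scale (lower in 2 lines) or under the authors' factors (lower in 4). SRSF11 had 522 and 529.5 CPM in treated T4V libraries against 330 and 453 CPM in untreated ones (0.43 ± 0.16, edgeR adjusted p = 0.045). That call was lost at 0.14 without untreated T4V replicate 1, 0.39 without treated replicate 1 and 0.36 without treated replicate 2 (edgeR adjusted p = 0.21 to 0.64).

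The transformer-2 paralogues, which bind GAA-rich exonic enhancers, moved in opposite directions with TMM scaling. TRA2A, singled out after its values were seen, had 204 and 201 CPM in treated S5A libraries against 127 and 123 CPM in untreated ones, and 199.6 and 193 CPM in treated S2A libraries against 132 and 139.6 CPM in untreated ones. It had 177 and 171 CPM in treated Y1F libraries against 125 and 135 CPM in untreated ones. The level was 192 and 181 CPM in treated T4V libraries against 126 and 150.2 CPM in untreated ones, and 170.2 and 148 CPM in treated S7A libraries against 142 and 121 CPM in untreated ones. Every treated library of these 5 lines was above both untreated ones of its line. It had 166 and 148 CPM in treated degron libraries against 106 and 108 CPM in untreated ones. The level was 144 and 139 CPM in treated WT libraries against 126 and 129.8 CPM in untreated ones. The change was 0.70 ± 0.10 in S5A, 0.55 ± 0.10 in the degron line, 0.53 ± 0.10 in S2A, 0.44 ± 0.10 in T4V, 0.42 ± 0.10 in Y1F and 0.28 ± 0.10 in S7A (edgeR adjusted p = 6.9e-06 to 0.035), and 0.14 ± 0.10 in WT (edgeR adjusted p = 0.47). Other scalings turned this direction: the authors' factors gave -0.54 in S7A, -0.45 in Y1F, -0.31 in the degron line, -0.26 in S5A and -0.03 in T4V, and mitochondrial scaling gave -0.15 in T4V, -0.12 in S7A and -0.05 in S5A. The rise is therefore one relative to other genes. Calls were lost without untreated or treated Y1F replicate 1 (0.31 and 0.35), untreated or treated T4V replicate 1 (0.24 and 0.35), and untreated S7A replicate 2 or treated S7A replicate 1 (0.16 and 0.14, edgeR adjusted p = 0.054 to 0.44 over these 6 fits).

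TRA2B fell in the same 6 lines. It had 196 and 183 CPM in treated Y1F libraries against 344 and 364 CPM in untreated ones. The level was 270.5 and 257 CPM in treated S5A libraries against 376 and 358 CPM in untreated ones, and 215 and 198 CPM in treated degron libraries against 286 and 297 CPM in untreated ones. The log2 fold change was -0.90 ± 0.08 in Y1F, -0.50 ± 0.08 in S2A, -0.48 ± 0.08 in S5A, -0.48 ± 0.08 in S7A, -0.50 ± 0.08 in the degron line and -0.27 ± 0.08 in T4V (edgeR adjusted p = 1.9e-08 to 0.013), and -0.16 ± 0.08 in WT (edgeR adjusted p = 0.27). The T4V call was lost at -0.20 without untreated T4V replicate 2, -0.32 without treated replicate 1 and -0.31 without treated replicate 2 (edgeR adjusted p = 0.053 to 0.12).

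Of the 20 hnRNP genes, 16 fell in Y1F, 15 in S5A and 12 in S7A, against the same 21%, 24.2% and 17.1% of all genes. In S2A 11 fell (18.2%), in T4V 7 (14%), in WT 3 (1.84%) and in the degron line 12 (21.4%). Among the 3 hnRNP U genes, whose products bind nuclear matrix and chromatin-associated RNA, all 3 fell in Y1F, S2A, S5A, S7A and the degron line, 1 in T4V and 0 in WT. HNRNPUL1, an hnRNP U-like protein also linked to DNA repair, had 169 and 159 CPM in treated S2A libraries against 388 and 378 CPM in untreated ones, 257 and 253 CPM in treated S5A libraries against 562 and 575 CPM in untreated ones, and 273 and 284 CPM in treated Y1F libraries against 661 and 576 CPM in untreated ones. Its lowest treated group was S2A, although its untreated S2A libraries were also the lowest of the untreated ones. The change was -1.22 ± 0.12 in S2A, -1.16 ± 0.11 in S5A, -1.15 ± 0.11 in Y1F, -0.92 ± 0.11 in the degron line, -0.77 ± 0.11 in T4V and -0.53 ± 0.11 in S7A (edgeR adjusted p = 5.2e-08 to 0.001), and -0.31 ± 0.11 in WT (edgeR adjusted p = 0.13).

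Of the 4 hnRNP F and H genes, which bind G-rich tracts, HNRNPF fell in all 6 lines other than WT (-0.35 to -0.99) and HNRNPH3 in 5 of them, all but T4V. HNRNPH2, on the X chromosome, was the member called both ways. It had 205 and 231 CPM in treated S2A libraries against 169 and 167 CPM in untreated ones. The level was 103 and 92.2 CPM in treated degron libraries against 114 and 131 CPM in untreated ones. The change was 0.37 ± 0.12 in S2A (edgeR adjusted p = 0.015) and -0.33 ± 0.12 in the degron line (edgeR adjusted p = 0.025). The S2A rise was lost without 3 of that line's libraries (0.38 without untreated replicate 1, 0.34 without untreated replicate 2 and 0.25 without treated replicate 2), and became -0.12 on the mitochondrial scale and -0.14 with the authors' factors. The degron fall was lost at -0.23 without untreated and -0.29 without treated degron replicate 2 (edgeR adjusted p = 0.21 and 0.14). HNRNPH1 also rose in S2A (0.29 ± 0.08, edgeR adjusted p = 0.0048), but stood at 0.26 without untreated and 0.22 without treated S2A replicate 2 (edgeR adjusted p = 0.089 and 0.13), -0.20 on the mitochondrial scale and -0.22 with the authors' factors.

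The 3 most abundant hnRNP genes were called lower in 3 lines or fewer with TMM scaling. On the mitochondrial scale HNRNPA1 was lower in 7 lines, HNRNPAB in 6 and HNRNPK in 7, and under the authors' factors in 6, 6 and 5. HNRNPA1 had 1794 and 1945 CPM in treated Y1F libraries against 2711 and 2856 CPM in untreated ones, 2019 and 1904 CPM in treated S5A libraries against 2618 and 2819 CPM in untreated ones, and 2710 and 2504 CPM in treated T4V libraries against 2509 and 2760 CPM in untreated ones. It fell in Y1F (-0.57 ± 0.08), S5A (-0.47 ± 0.08) and S7A (-0.31 ± 0.08, edgeR adjusted p = 5.6e-06 to 0.0041), and in T4V its libraries overlapped. The S7A call was lost without untreated S7A replicate 1 (-0.30, edgeR adjusted p = 0.055) or treated S7A replicate 2 (-0.26, edgeR adjusted p = 0.084). HNRNPAB fell in S5A (-0.53 ± 0.08), Y1F (-0.46 ± 0.08) and the degron line (-0.35 ± 0.08, edgeR adjusted p = 1.1e-05 to 0.001), and in WT it had 704 and 758 CPM in treated WT libraries against 763 and 754 CPM in untreated ones, which overlap. HNRNPK passed in Y1F alone, with 1054 and 1048 CPM in treated Y1F libraries against 1220 and 1341 CPM in untreated ones (-0.28 ± 0.09, edgeR adjusted p = 0.011), a call lost without untreated Y1F replicate 2 (-0.26, edgeR adjusted p = 0.092). HNRNPM, which binds GU-rich introns, rose in S2A (0.35 ± 0.09, edgeR adjusted p = 0.0053) and the degron line (0.24 ± 0.09, edgeR adjusted p = 0.043). Its degron value was 0.09 to 0.26 with any 1 of that line's 4 libraries left out (edgeR adjusted p = 0.051 to 0.54, the lowest value without treated replicate 2), and both values turned on the mitochondrial scale (-0.14 in S2A and -0.25 in the degron line) and under the authors' factors (-0.16 and -0.63).

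The change on treatment was then set against that of the WT line, each difference tested as an interaction. A negative value means that the change in the mutant lay below that in WT, as with a larger fall or a smaller rise. Y1F differed from WT for 14 members, 14 lower and 0 higher (6.31% and 3.42% of all genes), and S5A for 14, 13 lower and 1 higher (11.7% and 6.4%). S2A differed for 6, 5 lower and 1 higher (4.66% and 2.87%), S7A for 4, all lower (0.495% and 0.325%), and T4V for 2, 1 in each direction (2.35% and 1.36%). Where 0 were higher, in Y1F and S7A, edgeR at an unadjusted p under 0.05 and DESeq2's Wald test after adjustment also had 0. HNRNPDL fell further than in WT in all 5 mutant lines, with a difference of -1.52 ± 0.18 in Y1F, -1.44 ± 0.18 in S5A, -1.16 ± 0.18 in S2A, -0.90 ± 0.18 in S7A and -0.69 ± 0.18 in T4V (edgeR adjusted p = 1.3e-05 to 0.033), the last not called under the authors' factors (-0.90, edgeR adjusted p = 0.057). HNRNPD and SRSF3 fell further in 4 of the 5, all but T4V. HNRNPD differed by -1.30 ± 0.11 in S5A, -1.05 ± 0.11 in Y1F, -0.79 ± 0.11 in S2A and -0.66 ± 0.11 in S7A (edgeR adjusted p = 2e-07 to 0.01). SRSF3 differed by -1.53 ± 0.14 in S5A, -1.09 ± 0.14 in Y1F, -0.64 ± 0.13 in S7A and -0.53 ± 0.13 in S2A (edgeR adjusted p = 2e-07 to 0.029). SRSF8 fell further in Y1F (-0.44), S2A (-0.44), S5A (-1.25) and S7A (-0.64), in S2A not under the authors' factors (-0.71, edgeR adjusted p = 0.086). HNRNPUL1 differed by -0.92 ± 0.16 in S2A, -0.85 ± 0.16 in S5A and -0.84 ± 0.16 in Y1F (edgeR adjusted p = 0.00089 to 0.0019). These 5 comparisons share the 4 WT libraries.

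Some members differed from WT in 1 mutant line only by these tests, which do not compare the mutants with each other. SRSF4, SRSF12, TRA2B and HNRNPA1 passed in Y1F alone (-0.90, -0.89, -0.74 and -0.37), and SRSF2, HNRNPLL, HNRNPUL2 and TRA2A in S5A alone (-0.43, -0.66, -0.61 and 0.55). HNRNPH1 was higher relative to WT in S2A (0.46 ± 0.11, edgeR adjusted p = 0.011), but not on the mitochondrial scale (0.18, edgeR adjusted p = 0.35) or under the authors' factors (0.19, edgeR adjusted p = 0.68). HNRNPR was higher relative to WT in T4V (0.46 ± 0.12, edgeR adjusted p = 0.03), and this call too was lost on both scales (0.10 and 0.25, edgeR adjusted p = 0.68 and 0.70). The TRA2A difference in S5A was 0.03 on the mitochondrial scale and -0.16 under the authors' factors (edgeR adjusted p = 0.93 and 0.66). Of the calls that make up these counts, 8 of 14 in Y1F, 12 of 14 in S5A, 3 of 6 in S2A, 0 of 4 in S7A and 0 of 2 in T4V held without any 1 library. Those that did not were SRSF7, SRSF8, SRSF12, HNRNPA0, HNRNPA1 and HNRNPAB in Y1F, SRSF2 and TRA2A in S5A, SRSF3, SRSF8 and HNRNPH1 in S2A, and all of those in S7A and T4V, with edgeR adjusted p = 0.05 to 0.26 where a call was lost. The counts for T4V and S7A hang on single libraries. They were 0 to 4 in T4V (0 without untreated WT replicate 1 or 2 or either treated T4V library, 1 without treated WT replicate 2 or either untreated T4V library, and 4 without treated WT replicate 1) and 0 in S7A without untreated WT replicate 1, untreated S7A replicate 1 or treated S7A replicate 2 (1 without untreated WT replicate 2 or treated WT replicate 1). In Y1F the count was 9 without either untreated WT library or treated Y1F replicate 1, and in S2A 3 without untreated WT replicate 2 or either untreated S2A library.

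The wild-type complement against no complement gave the reverse pattern. The difference, WT change minus degron change, was positive for 9 members, which fell less in WT, and negative for 0 (8.24% and 3.79% of all genes). At an unadjusted p under 0.05 edgeR had 15 positive and 4 negative differences, and DESeq2's Wald test had 12 and 1 after adjustment. A negative difference need not be a larger fall: TRA2A differed by -0.40 but stood at 0.14 in WT and 0.55 in the degron line. SRSF3 differed by 1.20 ± 0.14, HNRNPDL by 1.10 ± 0.18 and SRSF4 by 0.85 ± 0.14 (edgeR adjusted p = 4.8e-06, 0.00024 and 0.00032). The other 6 were HNRNPF (0.81), SRSF8 (0.78), HNRNPLL (0.69), HNRNPD (0.68), HNRNPUL1 (0.62) and SRSF7 (0.50). All but that of HNRNPUL1 held without any 1 library (0.44 for HNRNPUL1, edgeR adjusted p = 0.095, without treated WT replicate 2, and also lost without untreated WT replicate 1 or untreated degron replicate 1). With the lines' own libraries the count was 5, and Dox, given to WT and not to the degron line, cannot be told apart from the complement here.

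**Figure D5:**
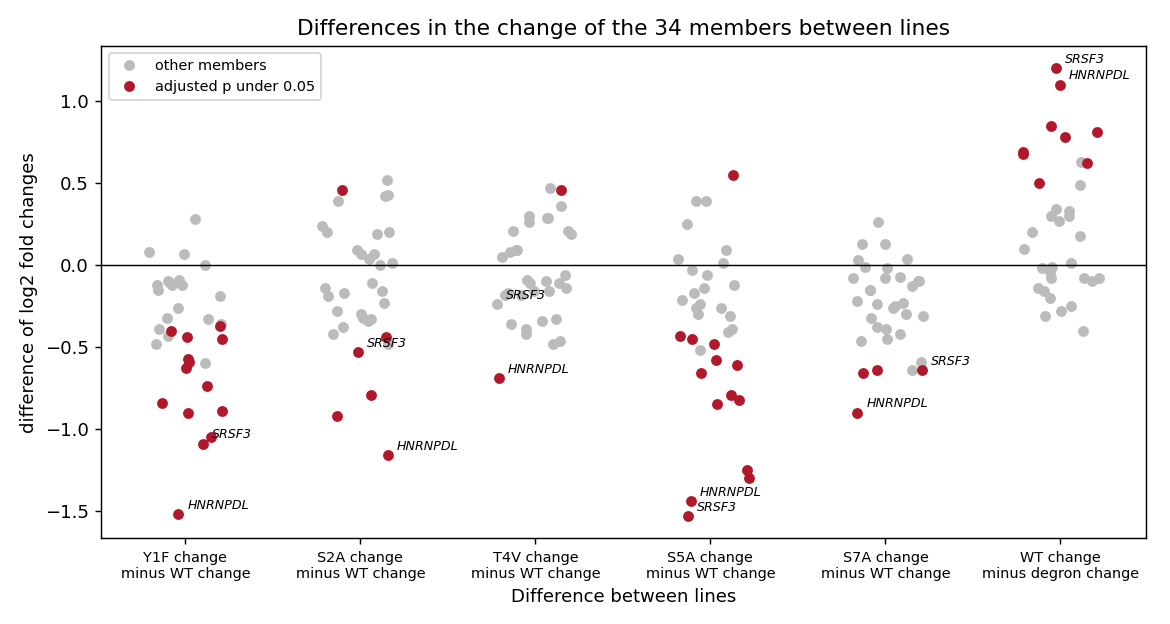
Difference between lines in the log2 fold change of each of the 34 members (points, spread sideways at random); red points have an edgeR adjusted p under 0.05. Differences of mutants from WT are mostly below 0, down to -1.53 for SRSF3 in S5A, and those of WT from the degron line reach 1.20 for SRSF3.

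Untreated lines already differed from the untreated degron line. Members higher and lower numbered 14 and 3 in S2A (18.3% and 18% of all genes), 13 and 1 in S7A (8.42% and 10.3%), and 10 and 0 in T4V (5.69% and 7.6%). They were 8 and 0 in Y1F (4.31% and 6.74%), 7 and 0 in S5A (5.77% and 6.98%) and 5 and 0 in WT (3.83% and 6.37%), where edgeR at an unadjusted p under 0.05 and DESeq2's Wald test also had 0 lower in T4V, Y1F, S5A and WT. SRSF6, SRSF2 and HNRNPM were higher in all 6 lines, comparisons that share the 2 untreated degron libraries. SRSF6 differed by 1.04 in S2A, 0.99 in T4V, 0.94 in S7A, 0.93 in S5A, 0.82 in Y1F and 0.78 in WT. HNRNPM differed by 0.42 to 0.69 and SRSF2 by 0.38 to 0.74. Without any 1 library HNRNPM kept its call in Y1F, S5A, S7A, S2A and T4V, SRSF6 in S5A, S7A, S2A and T4V, and SRSF2 in S7A, S2A and T4V. Without untreated degron replicate 1 the number called was 9 in S7A, 7 in S2A, 5 in T4V, 2 in S5A, 1 in Y1F and 1 in WT. Leaving out untreated degron replicate 2 gave 5 in Y1F, and leaving out an untreated library of the line itself gave 3 (WT replicate 1), 1 (WT replicate 2), 4 (Y1F replicate 1), 1 (Y1F replicate 2), 8 (S2A replicate 2), 6 (T4V replicate 2), 3 (S5A replicate 1 or 2) and 9 (S7A replicate 1).

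Against Mock, the untreated degron line had 10 members higher and 8 lower (33.4% and 31.4% of all genes). The difference was largest for SRSF12, at 18.0 ± 2.55 CPM in the untreated degron line against 1.53 ± 0.277 CPM in Mock (SD, n = 2 each; 3.55 ± 0.24, edgeR adjusted p = 1.6e-11). SRSF4 (1.45) and SRSF11 (1.28) were also higher and SRSF6 (-1.17), HNRNPUL2 (-1.08) and HNRNPUL1 (-0.77) lower. These differences run with the marker difference given above, and the degron and the kind of cell cannot be told apart in them.

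Genes that work beside the members were followed in 5 lists, first with TMM scaling. All genes that rose and fell on this scale were 23.1% and 21% in Y1F, 25.5% and 24.2% in S5A, 17.8% and 17.1% in S7A, 17% and 18.2% in S2A, 14.8% and 14% in T4V, 3.09% and 1.84% in WT, and 23.1% and 21.4% in the degron line. Of 46 core spliceosome genes, 2 rose and 17 fell in Y1F, 8 and 12 in S5A, 8 and 8 in S7A, 7 and 6 in S2A, 13 and 5 in T4V, 0 and 1 in WT and 10 and 10 in the degron line. The share that fell, 37% in Y1F, was 10.9% to 26.1% in the 5 other lines without WT, near that of all genes. SNRPA, the U1 snRNP A protein (6 lines, mean log2 fold change over the 6 lines other than WT -1.34), and SF3B3 of the U2 snRNP (6 lines, -0.86) fell, and SLU7, a second-step factor, rose in 6 (0.77), a call that 4 lines kept without any 1 library and none kept with the authors' factors. Of 21 SR-related proteins and coactivators, 1 rose and 11 fell in Y1F, 3 and 7 in S5A, 2 and 7 in S7A, 2 and 5 in S2A, 3 and 2 in T4V, 0 and 0 in WT and 3 and 10 in the degron line. PNN fell in 6 lines (-0.71), and SCAF8 and SRRM2 in 4 each (-0.55 and -0.53), 3 of them without any 1 library.

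Of 10 SR protein kinases, 1 rose and 3 fell in Y1F, 1 and 1 in S5A, 1 and 3 in S7A, 1 and 1 in S2A, 2 and 2 in T4V, 0 and 0 in WT and 1 and 4 in the degron line. CLK1, which phosphorylates SR proteins, rose in 6 lines (mean 1.35), in 5 of them also without any 1 library, and in 5 with the authors' factors and with mitochondrial scaling. CLK2 and DYRK1A fell in 4 (-0.46 and -0.39). Of 16 nonsense-mediated decay genes 2 rose and 8 fell in Y1F, 0 and 8 in S5A, 2 and 5 in S7A, 2 and 4 in S2A, 1 and 4 in T4V, 0 and 0 in WT and 2 and 10 in the degron line. The kinase cofactor SMG9 fell in 6 lines (-1.53) and DHX34 in 5 (-1.04, 4 of them without any 1 library), and SMG8 rose in 5 (0.57), a rise called in 0 lines with the authors' factors and 1 with mitochondrial scaling, each of which called it lower in 1. Of 32 other splicing regulators tested, 1 rose and 13 fell in Y1F, 5 and 12 in S5A, 1 and 11 in S7A, 2 and 11 in S2A, 4 and 5 in T4V, 0 and 3 in WT and 4 and 10 in the degron line. The epithelial regulator ESRP2 rose in 6 (2.00, 5 of them without any 1 library), SYNCRIP fell in 6 (-0.98, 3 of them without any 1 library) and PCBP1 in 4 (-0.95, 3 without any 1 library). Where 0 genes of a list were called in WT, edgeR at an unadjusted p under 0.05 had 1 higher and 3 lower among SR-related proteins, 2 and 1 among kinases and 1 and 0 among decay genes, and DESeq2's Wald test had 0 after adjustment. For core spliceosome genes it had 0 higher and 5 lower in WT (DESeq2 0 and 2) and for other regulators 1 and 5 (DESeq2 0 and 3), and for decay genes in S5A 2 higher and 8 lower (DESeq2 2 and 7).

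The mixed directions in these 5 lists did not hold under the other scalings. Both of those shift all genes down on treatment, so fewer rises and more falls follow in any list and are not particular to these. On the mitochondrial scale and under the authors' factors at most 1 gene of each list rose in any line. In the 6 lines other than WT, core spliceosome genes lower numbered 25 to 40 on the mitochondrial scale and 15 to 43 under the authors' factors, SR-related ones 13 to 19 and 7 to 21, and kinases 5 to 8 and 2 to 9. Decay genes lower numbered 8 to 16 and 9 to 16, and other regulators 23 to 28 and 22 to 30. Of all genes tested, 36.7% to 56.8% were lower in these lines on the first scale and 33.7% to 62.5% on the second.

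Over the 15 group means, the genes whose log2 CPM was most like that of SRSF3 among the 11503 ranked were NCAPH (Pearson r = 0.978), ARMH3 (0.975), BUB1B (0.974), UBL4A (0.973) and DHX35 (0.972), a description over groups that share lines and scaling. Across the 34 members, the mean log2 fold change over the 6 lines other than WT had a Spearman rho of 0.28 with gene span, 0.24 with untreated TPM and 0.02 with exon length, also descriptions over genes that are not independent.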

How the data were processed

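The authors trimmed reads with Trim Galore 0.6.2, aligned with STAR 2.7.3a to hg38 and dm6 and counted with featureCounts 2.0.1, per the submitters' processing notes; the deposited counts are whole numbers per gene. The authors' deposited TPM values have library sums of 998366 to 999347. The authors' deposited table of each line holds a p-value, a log2 fold change and a base mean, a signal that averages counts divided by library factors; DESeq2 1.24.0 stands in the submitters' processing notes. Not given in the sources used here are the annotation release, strand setting and multi-mapping rule, so antisense partners and near-identical copies cannot be separated.

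Counts were tested with edgeR 4.0.16 in R 4.3.3 (quasi-likelihood, robust, TMM, 1 coefficient per group over all 30 libraries, 15 residual degrees of freedom, common dispersion 0.0122). filterByExpr (minimum count 10, minimum total 15) left 19982 genes tested and 41596 not. Benjamini-Hochberg adjustment ran over all tested genes within each of 20 comparisons, with a threshold of 0.05. Library totals of 10866089 to 17912802 counts set the precision. Fly scaling could not be made since 0 fly genes are listed. The members, lists and tests were chosen with earlier results of these data known. Members named by rule were the 8 with the largest called change without overlap, those called both ways, the 3 with the highest TPM and up to 3 per difference between lines. For most of these members, values of single libraries are given for part of the lines at most. From each companion list 3 genes at most were named, among those called in at least 4 of 6 lines. Alternatives were DESeq2 1.42.0 size factors and Wald test, mitochondrial scaling (13 mRNAs), the authors' factors, own libraries, a replicate block, no low-count filter, a filter at mean CPM 5, each library left out and, added after seeing the data, a fit without Mock. The test was checked on simulated counts. No libraries were merged, since the 2 libraries of each group differed beyond sampling noise (chi-square over degrees of freedom 1.29 to 27.7). Python 3.11.15 with pandas 2.3.3 made the tables and matplotlib 3.10.9 the plots.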

Additional observations from a re-analysis of the deposited data

Results flagged for a closer look

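The change on treatment differed between lines, by a test of the difference itself, for 14 members between Y1F and WT, 14 between S5A and WT, 6 between S2A and WT, 4 between S7A and WT, 2 between T4V and WT and 9 between WT and the degron line. Of the members named, HNRNPDL differed from its change in WT by -1.52 in Y1F, -1.44 in S5A, -1.16 in S2A, -0.90 in S7A and -0.69 in T4V, and in WT from the degron line by 1.10. SRSF3 differed by -1.09 in Y1F, -1.53 in S5A, -0.64 in S7A and 1.20 between WT and the degron line. HNRNPD differed from WT by -1.05 in Y1F, -0.79 in S2A, -1.30 in S5A and -0.66 in S7A. HNRNPUL1 differed by -0.92 in S2A, HNRNPR by 0.46 in T4V, and SRSF4 by 0.85 between WT and the degron line. The values for T4V and S7A lost their call when 1 library was left out, as given above.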

How the results depend on the processing

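The 96 gene values followed kept direction and call in 92 cases with DESeq2's Wald test, 95 with DESeq2 size factors, 83 with the authors' factors, 84 with mitochondrial scaling, 90 with a mean CPM of at least 5, 91 with no low-count filter, 76 with own libraries, 84 with the replicate block and 90 without Mock. Values that turned, given first for mitochondrial scaling and then for the authors' factors, were HNRNPH2 in S2A (-0.12 and -0.14), HNRNPH1 in S2A (-0.20 and -0.22), HNRNPM in S2A (-0.14 and -0.16) and in the degron line (-0.25 and -0.63), SRSF11 in T4V (-0.15 and -0.05) and TRA2A in T4V (-0.15 and -0.03), S5A (-0.05 and -0.26) and S7A (-0.12 and -0.54). With the authors' factors TRA2A also turned in Y1F (-0.45) and the degron line (-0.31). Both scalings shift the median of all genes, as given above, which their construction fixes.

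Counts of members moved by over 1.5 times as follows, and apart from those shifts the cause was not tested. With mitochondrial scaling 0 rose in any of Y1F, S2A, T4V, S5A, S7A and the degron line (0 also at an unadjusted p in edgeR), lower counts were 29 in S2A, 32 in T4V, 23 in WT and 31 in the degron line, and differences from WT were 12 in S2A, 12 in T4V and 29 in S5A, with 16 between WT and the degron line. With the authors' factors 0 rose in the same 6 lines (0 at an unadjusted edgeR p), lower counts were 28 in S2A, 26 in T4V and 33 in the degron line, and differences from WT were 29 in Y1F and S5A, 22 in S7A and 0 in T4V (5 lower and 0 higher at an unadjusted edgeR p), with 19 between WT and the degron line. DESeq2's Wald test gave 1 higher in T4V and the degron line, 2 higher in S5A and 5 differences of T4V from WT, and DESeq2 size factors 1 higher in T4V and 2 in S5A. A mean CPM of at least 5 gave 7 higher in S2A, 4 in S5A and 2 in S7A, 17 lower in S5A, and 10 differences from WT in S2A and 4 in T4V. No low-count filter gave 0 higher in S7A, 1 in the degron line, 8 lower in WT, 1 difference of T4V from WT, and 5 in untreated Y1F and 10 in untreated S2A against the untreated degron line. Without Mock there were 0 higher in S7A, 1 in T4V, 1 in the degron line and 0 differences of T4V from WT.

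With each comparison's own libraries, the higher counts were 7 in S2A, 0 in T4V, 4 in S5A, 0 in S7A and 1 in the degron line, and the lower ones 8 in T4V, 12 in S7A, 0 in WT and 13 in the degron line. Differences from WT were then 5 in Y1F, 3 in S2A, 0 in T4V and 0 in S7A, with 5 between WT and the degron line, and untreated lines against the untreated degron line had 3 in Y1F, 1 in T4V, 11 in S5A and 8 in WT. The replicate numbers were not shown to pair libraries: deviations of same-numbered treated and untreated libraries correlated at -0.31 to 0.24 over the 7 lines. The replicate block gave 1 higher in T4V, 0 in S7A and 1 in the degron line, 3 lower in WT, and 0 differences from WT in T4V and in S7A.

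With 1 library left out, the higher and lower counts ranged over 0 to 1 and 23 to 27 in Y1F, 2 to 4 and 14 to 16 in S2A, 0 to 3 and 11 to 19 in T4V, 1 to 1 and 24 to 26 in S5A, 0 to 1 and 15 to 26 in S7A, 0 to 0 and 1 to 6 in WT, and 1 to 1 and 15 to 21 in the degron line. Differences from WT ranged over 9 to 13 in Y1F, 3 to 6 in S2A, 0 to 4 in T4V, 12 to 15 in S5A and 0 to 5 in S7A, with 8 to 10 between WT and the degron line. Untreated lines against the untreated degron line ranged over 1 to 5 in Y1F, 7 to 13 in S2A, 5 to 12 in T4V, 2 to 6 in S5A, 9 to 13 in S7A and 1 to 4 in WT, and the untreated degron line against Mock over 15 to 16. Having 2 libraries per group limits all of these, and depth limits SRSF12 most, the member with the lowest level.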
